A study of Mus musculus with 10 samples.

Results

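The genes of the mitochondrial genome were taken as all rows of the count table whose gene name starts with mt-, which gave 35 of 38962 genes. They comprise 13 protein genes, 2 ribosomal RNA (rRNA) genes and 20 transfer RNA (tRNA) genes. GENCODE vM21 lists 37 mitochondrial genes, and the tRNA genes mt-Td and mt-Tk were not analysed here. A single library per mouse was made from the pulverized femur, flushed of its marrow, of 5 aged (22 months) and 5 young (2 months) mice, all C57BL/6J males. The aged mice came from the colony of the National Institute of Aging and were kept in house until use, whereas the young mice were bought from the Jackson Laboratory, so age and source of the mice cannot be told apart. rRNA, including that of mitochondria, was depleted before poly-A selection. The libraries held 31788232 to 45075335 counts in aged and 33447009 to 40395050 counts in young mice. Markers of osteoblasts and osteocytes took 1.604% to 4.27% of the counts in aged and 5.05% to 8.37% in young libraries, with no overlap between the groups, and markers of red cell precursors took 0.349% to 1.16% in aged and 0.434% to 1.19% in young libraries. In bulk RNA, fewer cells of a type and less RNA per cell cannot be told apart.

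The mitochondrial genome is a small circular DNA present in many copies per cell. Its genes are read from both strands as long transcripts that cover many genes, and the tRNAs between the other genes mark the places where these transcripts are cut into single RNAs. The proteins are core subunits of respiratory complexes I, III, IV and V, the rRNAs form the mitochondrial ribosome that translates them, and the tRNAs serve that ribosome. Every other protein that copies, reads or processes mitochondrial DNA is encoded in the nucleus. Tissues with a high demand for respiration, such as skeletal muscle, are rich in mitochondrial RNA.

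Parts of the mitochondrial genome also exist as copies in nuclear chromosomes, and 6 of the 13 protein genes lie in a part with a near-identical copy. The sequences below are shown because they show how close the copies are. They are bases 201 to 300 of mt-Co2, a subunit of complex IV (chrM:7213-7312, GRCm38, plus strand), and the matching 100 bases of the pseudogenes Gm28661 (chr1:24615266-24615365, minus strand) and Gm13341 (chr2:22587663-22587762, minus strand), from the GENCODE vM21 transcripts. Capitals mark bases that differ from mt-Co2.
mt-Co2: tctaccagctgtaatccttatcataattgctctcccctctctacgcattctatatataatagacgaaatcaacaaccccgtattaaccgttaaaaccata
Gm28661: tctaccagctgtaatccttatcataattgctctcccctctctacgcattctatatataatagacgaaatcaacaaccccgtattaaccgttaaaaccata
Gm13341: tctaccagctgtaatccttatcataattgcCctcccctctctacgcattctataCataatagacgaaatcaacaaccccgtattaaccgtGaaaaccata
The copy on chromosome 1 had 0 differences in this stretch and the copy on chromosome 2 had 3.

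Along its whole alignment of 681 bases Gm28661 was identical to mt-Co2. It belongs to a block of 7 pseudogenes on chromosome 1 (24611535 to 24616197, GRCm38) that together matched mitochondrial positions 6390 to 11042, from within mt-Co1 to within mt-Nd4. Gm10925, Gm28437 and Gm10222 were identical over their alignments to mt-Atp6, mt-Co3 and mt-Nd4l, and Gm28438 differed from mt-Nd3 at 1 base. Of all stretches of 150 bases, the length of the reads, 99.4% in mt-Co2, 99.4% in mt-Atp6, 99.8% in mt-Co3, 97.0% in mt-Nd3 and 98.0% in mt-Nd4l were also found in a nuclear transcript. The share was 59.2% in mt-Nd4, 23.6% in mt-Co1 and 0% in mt-Nd1, mt-Nd2, mt-Nd5, mt-Nd6, mt-Cytb, mt-Rnr1 and mt-Rnr2. mt-Atp8 lies inside the same part, but the share was 0% there as well. Only its last 43 bases fall in an annotated pseudogene, Gm10925, and nuclear sequence outside annotated transcripts was not searched.

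The 6 protein genes inside this part had far lower values per length than the other 7. On the scale of CPM (counts scaled to library size with trimmed mean of M values, TMM) per kilobase, their medians over the 10 libraries were 0.738 to 15.7, against 688 to 4186 for the other protein genes. In no library did a gene inside the part exceed 47.8 CPM per kilobase, and in none did a gene outside it fall under 277. The step is seen between neighbours that encode subunits of the same complex. mt-Co1, the catalytic subunit of complex IV, had a median level per kilobase 325 times that of the adjacent mt-Co2. mt-Co2 had 732, 389, 300, 233 and 557 counts in aged and 336, 358, 432, 236 and 205 counts in young libraries. mt-Co1 had 563667, 253570, 261841, 195413 and 476956 counts in aged and 212767, 297284, 312442, 216314 and 203469 in young libraries. The 2 genes thus differed by far more than any pair of libraries did.

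**Figure D1:**
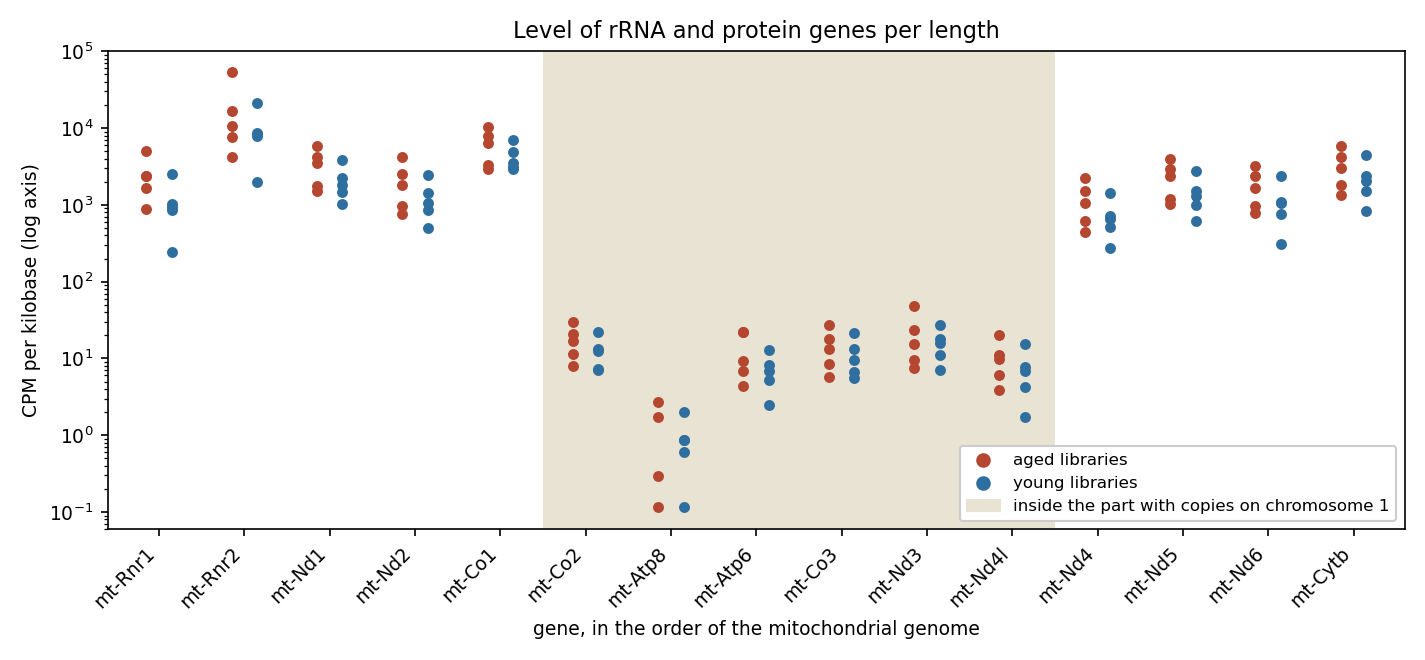
CPM per kilobase on a log axis for the 2 rRNA and 13 protein genes in genome order, with 1 point per library (red, aged, and blue, young, n = 5 each) and the genes inside the part copied on chromosome 1 shaded. The shaded genes stay under 47.8 CPM per kilobase and the protein genes outside stay above 277; 1 aged library at 0 for mt-Atp8 is not drawn.

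The 7 pseudogenes of the chromosome 1 block had 537 to 4668 counts each in all libraries together, and the 6 genes inside the copied part had 71 to 3778. Gm28661 had 271 to 1326 counts in aged and 191 to 492 in young libraries. The sources read for this report do not give how the authors' counting treated reads that fit 2 places. The levels of mt-Co2, mt-Atp8, mt-Atp6, mt-Co3, mt-Nd3 and mt-Nd4l are therefore uncertain, and the part of shared reads in this step was not tested. The same holds in part for mt-Nd4 and mt-Co1, where 59.2% and 23.6% of the stretches were shared. Sums over the protein genes rest on the genes outside the part, mt-Nd4 and mt-Co1 among them. The 6 genes inside the part made up 0.144% to 0.182% of the protein gene counts in aged and 0.155% to 0.197% in young libraries.

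Mitochondrial genes took 12.2%, 2.41%, 3.70%, 2.42% and 5.36% of all counts in aged libraries 1 to 5, against 2.93%, 3.66%, 5.73%, 3.12% and 1.36% in young libraries 1 to 5. Aged 1 was the highest and young 5 the lowest, and the other 8 libraries of both ages were interleaved. The mean was 5.22% ± 4.08 in aged and 3.36% ± 1.58 in young libraries (SD, n = 5 each), a difference of 1.86 percentage points that was smaller than the SD of the aged libraries. Without aged 1 the difference was 0.114 points. Counting error was small here, as 95% Wilson intervals of these shares were at most 0.0103 points to either side.

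By class, the protein genes took 1.09% to 4.06% of counts (median 2.099%) in aged and 0.983% to 2.62% (median 1.51%) in young libraries. The rRNA genes took 0.871% to 8.12% (median 1.597%) in aged and 0.375% to 3.10% (median 1.58%) in young libraries. The tRNA genes took 0.00349% to 0.0150% in aged and 0.00321% to 0.00904% in young libraries. The groups overlapped in each class. Across the 10 libraries the rRNA share varied 21.6-fold, the protein gene share 4.13-fold and the tRNA share 4.68-fold, so the rRNA genes accounted for the widest range. The rRNA share, and the total that includes it, depends on how much rRNA the depletion step left behind.

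**Figure D2:**
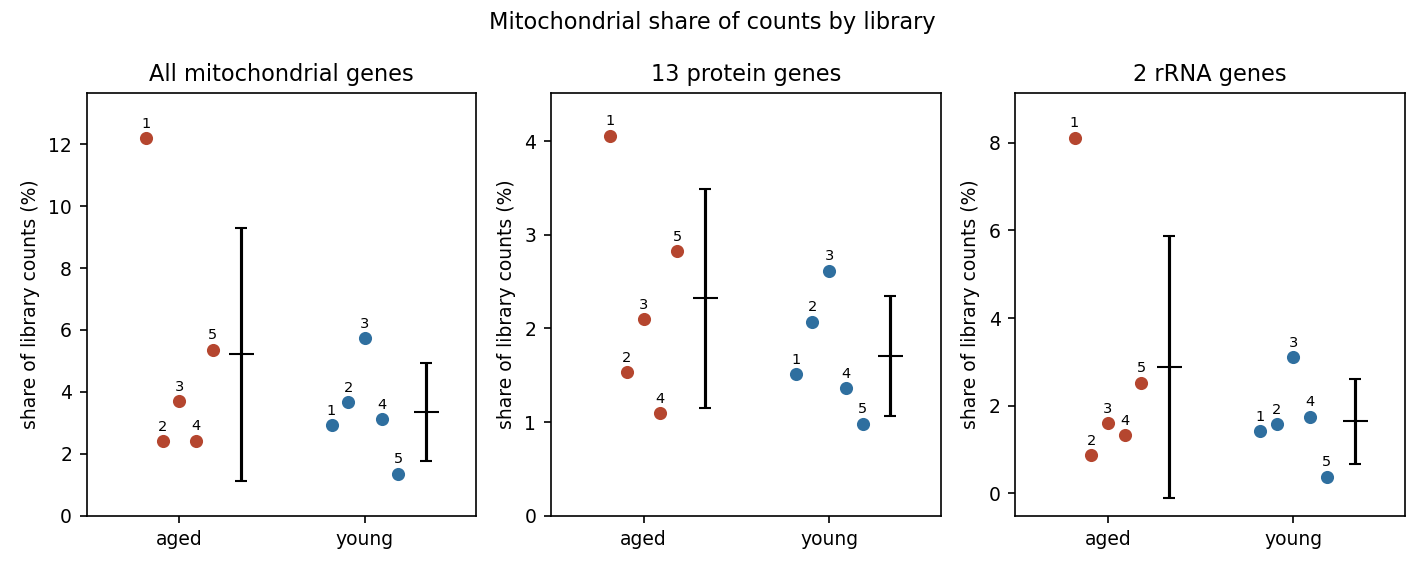
Share of library counts in percent from all mitochondrial genes, the 13 protein genes and the 2 rRNA genes, with 1 numbered point per library (aged left, young right) and the mean ± SD (n = 5 each). Aged 1 stands at 12.2% for all mitochondrial genes and young 5 at 1.36%, with the remaining libraries of both ages mixed between 2.41% and 5.73%.

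The 2 rRNA genes had positive estimates that did not pass the test. Their levels, too, are those left after depletion. mt-Rnr2, the 16S rRNA of the large ribosomal subunit (chrM:1094-2675), had 83718, 6726, 17008, 12086 and 26533 CPM in aged and 12554, 13027, 33540, 13834 and 3178 CPM in young libraries. Aged 1 was more than any other library and young 5 less, and the remaining aged and young libraries overlapped. The log2 fold change of aged over young was 0.94 (standard error, SE, 0.70, edgeR adjusted p = 0.426), and without aged 1 it was 0.035 (edgeR adjusted p = 0.976, the highest when each library was left out, with 0.236 the lowest). mt-Rnr1, the 12S rRNA of the small subunit (chrM:70-1024), had 4791, 854, 2244, 1564 and 2265 CPM in aged and 993, 821, 2409, 888 and 231 CPM in young libraries. Aged 3, 4 and 5 were above every young library but young 3, and aged 2 lay among the young ones. The estimate on the log2 scale was 1.13 (SE 0.56, edgeR adjusted p = 0.226).

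The ratio of rRNA to protein gene counts overlapped between the ages. It was 2.00, 0.569, 0.761, 1.21 and 0.895 in aged and 0.938, 0.761, 1.19, 1.28 and 0.382 in young libraries. Aged 1 was again highest and young 5 lowest. On the log2 scale the ratio averaged -0.02 ± 0.69 in aged and -0.25 ± 0.70 in young libraries (SD, n = 5 each), a difference of 0.24 that was within the SD of either group. Without aged 1 the difference was -0.02 and without young 5 it was -0.05, so its sign rested on either of these libraries. The value of the ratio depends on how much rRNA the depletion step left behind, and no value in the table measures that step.

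Within the rRNAs, the ratio of mt-Rnr2 to mt-Rnr1 counts was 17.5, 7.88, 7.58, 7.73 and 11.7 in aged and 12.6, 15.9, 13.9, 15.6 and 13.7 in young libraries. Aged 2 to 5 were below every young library, while aged 1 was above them all. The mean was 10.5 ± 4.28 in aged and 14.3 ± 1.35 in young libraries (SD, n = 5 each). The ratio to protein gene counts of mt-Rnr1 was 0.0641 to 0.139 in aged and 0.0259 to 0.0795 in young libraries, and that of mt-Rnr2 was 0.505 to 1.89 in aged and 0.356 to 1.20 in young libraries. Both ratios overlapped between the ages. The depletion step targeted both rRNAs, so all 3 ratios depend on how much of each it left behind. The part of that step in the lower ratio of aged 2 to 5 was not tested.

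**Figure D3:**
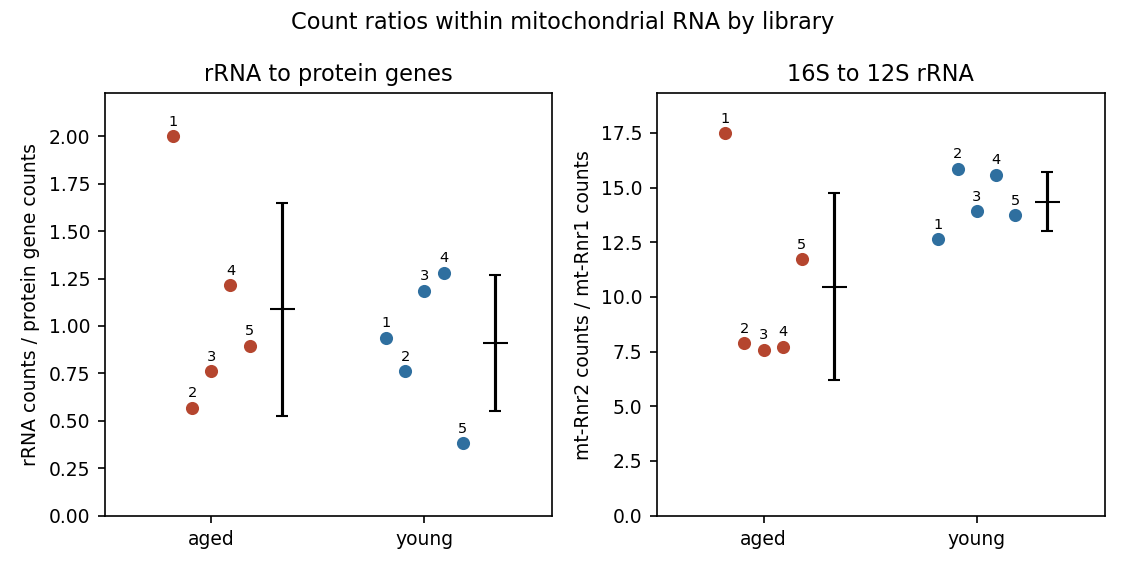
Ratio of rRNA to protein gene counts (left panel) and of mt-Rnr2 (16S) to mt-Rnr1 (12S) counts (right panel), with 1 numbered point per library (aged left, young right in each panel) and the mean ± SD (n = 5 each). In the right panel aged 2 to 5 lie between 7.58 and 11.7, below the young libraries at 12.6 to 15.9, and aged 1 lies above them at 17.5. Both ratios depend on how much of each rRNA the depletion step left behind.

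Of the 13 protein genes, 12 were tested and 0 passed in either direction (edgeR's quasi-likelihood test, called where the adjusted p did not exceed 0.05), with log2 fold changes of aged over young from 0.35 to 0.86 (median 0.60; edgeR adjusted p = 0.299 to 0.656). Across all 22088 genes tested, 3.68% were higher and 3.61% lower at that threshold. mt-Atp8, a subunit of the ATP synthase with 71 counts in all libraries together, did not pass the filter on low counts.

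The 7 subunits of complex I, which takes electrons from NADH, had log2 fold changes between 0.40 and 0.72. mt-Nd5, the longest of them, had 7166, 2172, 4273, 1877 and 5298 CPM in aged and 2355, 2769, 5025, 1803 and 1115 CPM in young libraries. The aged libraries 1 and 5 exceeded all young ones, and aged 2 and 4 lay below 3 of them. On the log2 scale the fold change was 0.67 (SE 0.44, edgeR adjusted p = 0.366). mt-Nd1 and mt-Nd2 had values of 0.70 and 0.72 (SE 0.42 and 0.50, edgeR adjusted p = 0.320 and 0.388) and mt-Nd4 of 0.69 (0.48, 0.390). mt-Nd3 and mt-Nd4l, which lie inside the copied part, had values of 0.40 and 0.52 (0.49 and 0.53, edgeR adjusted p = 0.650 and 0.570).

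mt-Nd6 is the protein gene on the minus strand of the reference, opposite to the other 12, and 14 bases at its 3' end overlap the end of mt-Nd5. It averaged 1802 ± 1019 CPM per kilobase in aged and 1119 ± 767 in young libraries (SD, n = 5 each), with a log2 fold change of 0.69 (SE 0.50, edgeR adjusted p = 0.418). Per kilobase it stood at 0.712 to 0.822 of the count of mt-Nd5 in aged and at 0.509 to 0.860 in young libraries, the lowest being young 5. Nothing read for this report says whether reads were counted by strand, so reads of mt-Nd6 cannot be told apart from reads of the long transcript that runs through it on the other strand.

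mt-Cytb, the subunit of complex III encoded in mitochondria, had 6630, 2045, 3468, 1536 and 4840 CPM in aged and 2341, 2720, 5040, 1753 and 963 CPM in young libraries. Only aged 1 exceeded every young library. Aged over young, the log2 fold change was 0.53 (SE 0.47, edgeR adjusted p = 0.502). Of the complex IV subunits, mt-Co1 had the highest level of all protein genes, at 6129 ± 3068 CPM per kilobase in aged and 4279 ± 1698 in young libraries (SD, n = 5 each). The estimate on the log2 scale was 0.52 (SE 0.36, edgeR adjusted p = 0.380). mt-Co2 and mt-Co3 had values of 0.49 and 0.35 (SE 0.38 and 0.45, edgeR adjusted p = 0.453 and 0.656), and mt-Atp6 of the ATP synthase, complex V, had 0.86 (0.50, 0.299). All 3 lie inside the copied part.

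The shares of the protein gene counts held by each complex overlapped between the ages, and young 5 stood apart. Complex I took 45.5% to 49.3% in aged and 35.4% to 47.5% in young libraries, complex III 13.7% to 15.3% in aged and 10.8% to 16.6% in young, and complex IV 35.7% to 40.8% in aged and 35.8% to 53.8% in young. The lowest share of complex I and of complex III and the highest of complex IV were those of young 5, where mt-Co1 alone took 53.7% of the protein gene counts, against 35.7% to 41.1% in the other young libraries. The shares of complexes I, IV and V cover only the reads that were assigned. mt-Nd3 and mt-Nd4l of complex I, mt-Co2 and mt-Co3 of complex IV, and mt-Atp6 and mt-Atp8 of complex V lie inside the copied part. In mt-Nd4 of complex I and mt-Co1 of complex IV, 59.2% and 23.6% of the stretches of read length were shared with a nuclear transcript.

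The tRNA genes had 27405 counts in all libraries together, or 3.08 to 3.69 per 1000 protein gene counts in aged and 3.18 to 4.36 in young libraries. mt-Tp and mt-Tc, the tRNAs for proline and cysteine, held 69.8% of them. The 8 rows on the minus strand of the reference held 84.8% of the tRNA counts, with the other 12 rows making up the rest. A tRNA is shorter than 1 read, so a counted read reaches into neighbouring sequence or comes from a short fragment. mt-Tp had 56.1, 24.6, 33.4, 15.99 and 51.7 CPM in aged and 25.0, 36.0, 58.2, 17.3 and 15.1 CPM in young libraries, with the highest value in young 3. On the log2 scale the fold change was 0.26 (SE 0.41, edgeR adjusted p = 0.726), the smallest of the 24 mitochondrial genes tested. mt-Tc had a log2 fold change of 0.86 (SE 0.49, edgeR adjusted p = 0.290). mt-Tn, the tRNA for asparagine, had 0.77 (0.56, 0.408), and mt-Tl2, a tRNA for leucine, had 0.53 (0.44, 0.470).

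The smallest p-values among the tRNAs were those of mt-Ti, mt-Ty and mt-Te. Sequences of 2 of them are given, from the GENCODE vM21 transcripts on GRCm38 (mt-Ti at chrM:3706-3774, plus strand, and mt-Te at chrM:14071-14139, minus strand), because mt-Ti had the smallest p of all mitochondrial genes and mt-Te the largest estimate. Capitals mark the anticodon.
mt-Ti: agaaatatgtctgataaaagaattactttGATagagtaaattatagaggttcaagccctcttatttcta
mt-Te: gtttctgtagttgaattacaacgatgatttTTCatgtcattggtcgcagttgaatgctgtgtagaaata
mt-Ti, the tRNA for isoleucine, shares 2 bases with mt-Nd1 and 3 with mt-Tq, which is read from the opposite strand, so reads across these ends are uncertain.

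mt-Ti had 32, 21, 14, 11 and 22 counts in aged and 11, 12, 8, 9 and 5 counts in young libraries. Scaled to depth these were 0.894, 0.417, 0.531, 0.258 and 0.556 CPM in aged and 0.282, 0.302, 0.277, 0.188 and 0.118 CPM in young libraries. Every aged library but aged 4 was above every young library. Aged over young, the log2 fold change was 1.18 (SE 0.38, edgeR adjusted p = 0.0701), which did not pass. With DESeq2 it was 1.20 (adjusted p = 0.0373) and without aged 4 it was 1.36 (edgeR adjusted p = 0.0365), both past the threshold. Over all alternatives its adjusted p ranged between 0.0365 and 0.414. mt-Ty, the tRNA for tyrosine, had 94, 24, 39, 19 and 73 counts in aged and 15, 30, 27, 15 and 23 in young libraries, with a log2 fold change of 1.24 (SE 0.50, edgeR adjusted p = 0.143). mt-Te, the tRNA for glutamate, had 365, 90, 93, 57 and 291 counts in aged and 60, 56, 122, 50 and 4 in young libraries. Young 5 held by far the fewest, and the log2 fold change was 1.58 (SE 0.73, edgeR adjusted p = 0.201). The other tested tRNAs, mt-Tw for tryptophan, mt-Th for histidine and mt-Ts2 for serine, had log2 fold changes of 1.45, 0.75 and 0.51 (edgeR adjusted p = 0.276, 0.499 and 0.566). The 10 tRNA genes that did not pass the filter, mt-Tf, mt-Tv, mt-Tl1, mt-Tq, mt-Tm, mt-Ta, mt-Ts1, mt-Tg, mt-Tr and mt-Tt, had 1 to 162 counts each in all libraries together.

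Over all classes, 24 of the 35 genes passed the filter on low counts and 0 were called, where 7.29% of the 22088 genes tested were called in either direction (edgeR). mt-Ti and mt-Ty, 2 of the 24, had an unadjusted p under 0.05, a share below the 25.7% of all genes tested. With DESeq2 1 gene was called, mt-Ti, and with limma-voom 0. The paper, which used DESeq2, also lists mt-Ti among the genes higher in aged mice, and the nuclear gene Top1mt. All 24 estimates were above 0, from 0.26 to 1.58 with a median of 0.70, while 50.9% of all genes tested had an estimate above 0. The mitochondrial genes are read as a few long transcripts and had the same highest and lowest library in most cases, so these 24 estimates are not 24 separate observations. In no gene were the age groups free of overlap, against 7.8% of all genes tested. Without aged 1 the median estimate was 0.34 and that of mt-Nd3 was -0.17, and without young 3 the median was 1.04, with 13 genes at an unadjusted p under 0.05 and 0 called.

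Markers of skeletal muscle, which adheres to bone, had estimates above 0 in 30 of 31 tested. The 32 muscle markers took 8.71%, 6.35%, 9.44%, 4.01% and 6.67% of counts in aged and 3.57%, 5.17%, 6.24%, 2.88% and 6.73% in young libraries. None was at 0 in all libraries, and of the 31 tested 0 were called and 13 had an unadjusted p under 0.05 (edgeR), against 7.29% and 25.7% of all genes tested, with a median log2 fold change of 0.72. The mean log2 CPM of the 32 markers was 9.53, 8.73, 9.39, 7.80 and 8.93 in aged and 7.90, 8.05, 8.78, 7.20 and 8.51 in young libraries. By this level aged 1 was highest of all and young 3 highest of the young libraries, as in mitochondrial share, whereas by share of counts aged 3 and young 5 were highest in their groups. Aged 4 was the lowest aged library by both measures and in mitochondrial protein gene share. Young 5, with the lowest mitochondrial share of all, was the second of the young libraries by level. With this level added to the model, 6 of the 24 mitochondrial estimates were above 0, the median was -0.12 and 0 genes were called (smallest edgeR adjusted p = 0.414, for mt-Ti). Aged 1, 3 and 5 exceeded every young library in this level, so the model cannot tell its part from that of age. The part of muscle in the estimates without the covariate was not tested further. The adipocyte markers took 0.0188% to 0.0446% of counts in aged and 0.0147% to 0.0289% in young libraries, with aged 1 the highest. Of the 8 tested 0 were called and 8 had estimates above 0 (median log2 fold change 0.60, edgeR), and their part was not tested. The noncoding RNA Gm26917 took 16.1% to 31.0% of the counts in aged and 14.5% to 24.02% in young libraries (log2 fold change 0.52 ± 0.36 SE, edgeR adjusted p = 0.384), and scaling without it left the median estimate at 0.70.

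**Figure D4:**
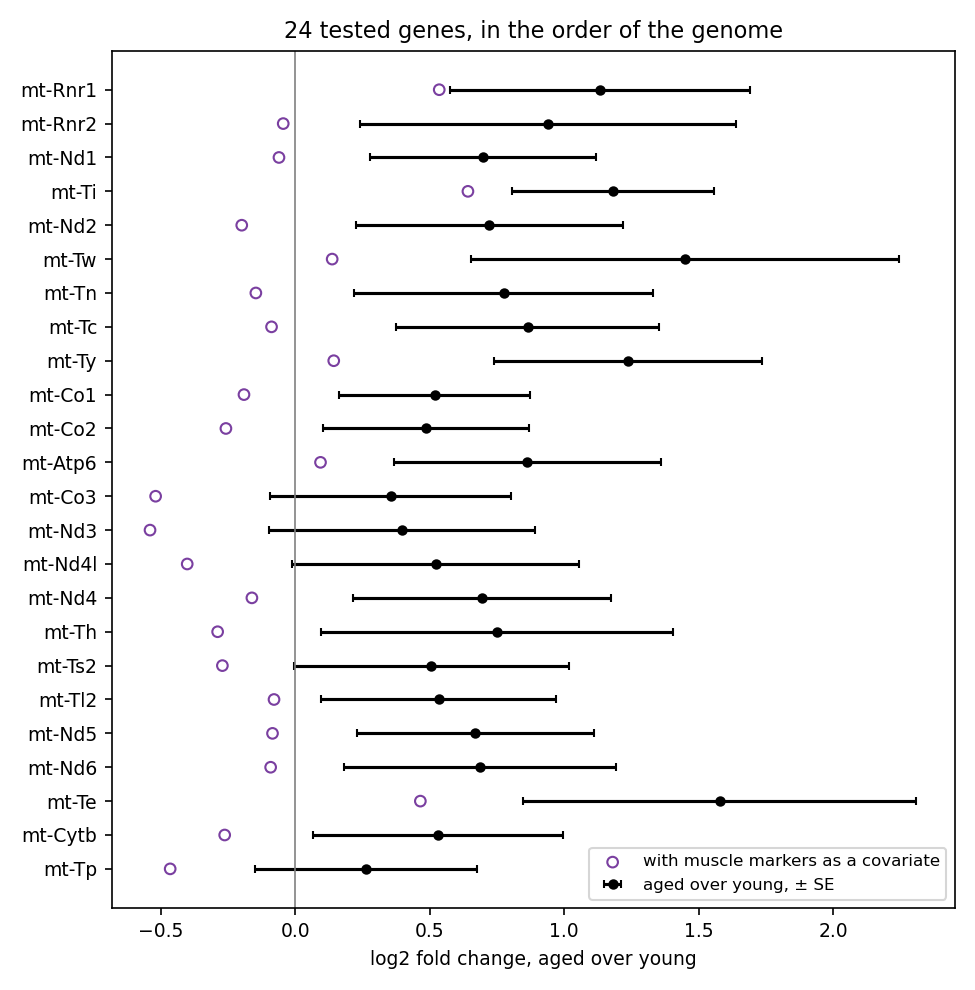
Log2 fold change of aged over young for the 24 tested mitochondrial genes in genome order, as filled points with the standard error, and the same estimate with muscle marker level in the model, as open circles. All filled points lie above 0, between 0.26 and 1.58, and 6 of the 24 open circles do.

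**Figure D5:**
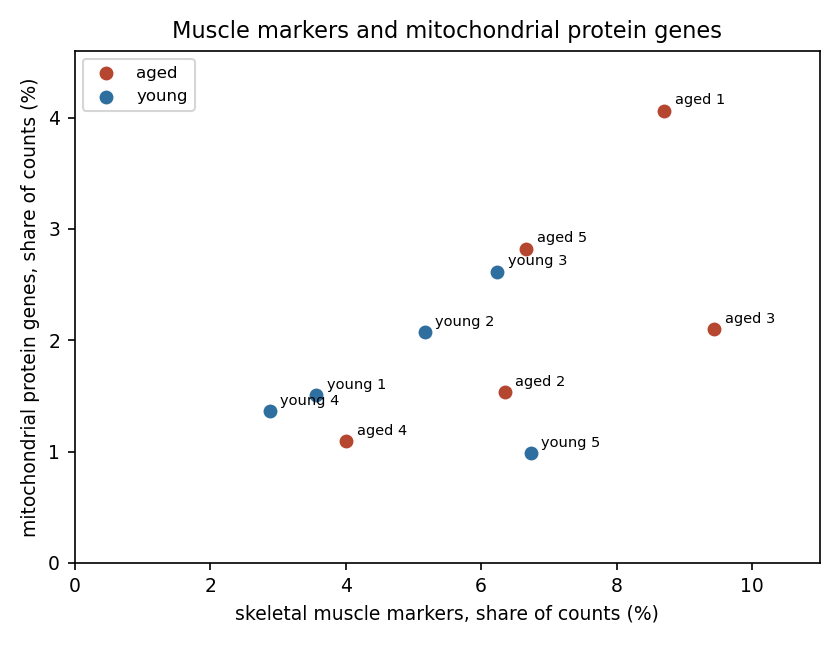
Share of counts from the 13 mitochondrial protein genes against the share from 32 skeletal muscle markers, both in percent, with 1 labelled point per library (aged red, young blue). Aged 1 is highest on the vertical axis at 4.06%, while young 5 lies lowest at 0.983% with 6.73% from muscle markers, the highest share of the young libraries, although young 3 is highest of them by mean log2 CPM (8.78, against 8.51 in young 5).

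The mitochondrial genes varied more among libraries of 1 age than most genes did. With 1 library per mouse, differences between mice and between preparations cannot be told apart. The SD of log2 CPM of the 24 genes had a median of 0.89 in aged and 0.85 in young libraries (n = 5 each), against medians of 0.28 and 0.25 over all genes tested. Only 2.71% of all genes tested in aged and 1.61% in young libraries had an SD above these member medians. The SD was largest for mt-Rnr2 in aged libraries, at 1.37, and for mt-Te in young libraries, at 1.79. It was smallest for mt-Ti in both groups, at 0.59 in aged and 0.45 in young libraries. Aged 1 held the highest CPM in 21 of the 24 genes, aged 5 in 2 and young 3 in 1. Young 5 held the lowest in 21, young 4 in 2 and young 1 in 1.

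Of the nuclear genes that maintain and express mitochondrial DNA, 1 passed the test. Of 67 tested genes on 4 lists, 1 was higher, 0 were lower and 66 did not pass (edgeR), against 7.29% of all genes called. The lists cover transcription, replication, RNA processing and RNA modification. Of the 67, 6 had an unadjusted p under 0.05 (edgeR), a share below the 25.7% of all genes tested. Their median log2 fold change was 0.01. That gene was Top1mt, the topoisomerase of mitochondria, called higher in aged bone. It had 5.75, 6.26, 7.70, 5.20 and 7.05 CPM in aged and 4.998, 3.57, 4.74, 3.96 and 3.77 CPM in young libraries. The groups did not overlap, which held for 7.8% of all genes tested. The log2 fold change of Top1mt was 0.60 ± 0.15 SE (edgeR adjusted p = 0.0282). The call ended with scaling by total counts (edgeR adjusted p = 0.143), with the muscle covariate (0.120) and without aged 3, aged 5, young 2 or young 4 (0.0608 to 0.0860). Over all alternatives its adjusted p ranged between 0.00229 and 0.143.

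Twnk, the helicase of mitochondrial replication, had 19.9, 17.8, 25.8, 20.9 and 17.9 CPM in aged and 17.4, 15.6, 17.8, 15.7 and 15.8 CPM in young libraries, also without overlap, and did not pass (log2 fold change 0.31 ± 0.11 SE, edgeR adjusted p = 0.110). Polg, the replicating polymerase, averaged 116 ± 15.04 CPM in aged and 102 ± 9.09 in young libraries (SD, n = 5 each; log2 fold change 0.19, edgeR adjusted p = 0.297). The mitochondrial RNA polymerase Polrmt had a log2 fold change of 0.16 (edgeR adjusted p = 0.426). Tfam, which packages mitochondrial DNA and starts its transcription, had 0.07 (0.748), and Lrpprc, which stabilizes mitochondrial mRNAs, had 0.11 (0.518). The standard errors of these 4 genes were 0.10 to 0.12, whereas those of the 24 mitochondrial genes were 0.36 to 0.79.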

How the data were processed

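The deposited values are raw counts of reads per gene. Per the paper's methods the authors trimmed reads with Cutadapt, aligned them with STAR to the mouse genome GRCm38.p6 and counted with featureCounts. The labels name a human build, but all 35 mitochondrial rows have the coordinates of GENCODE vM21 on GRCm38. The sources read do not give the annotation release, the use of strand or the treatment of reads with several places. The authors also deposited gene lengths, used here per kilobase.

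All 10 columns were used, as 1 library per mouse. Aged was compared with young in R 4.3.3 with edgeR 4.0.16 (minimum count 10, minimum total 15, TMM scaling, robust quasi-likelihood test, two-sided, Benjamini-Hochberg over 22088 genes). Each SE is |log2 fold change| over the square root of F. Sums and ratios over the genes were given no test. Nuclear copies were found with BLAST 2.17.0 at 90% identity or more among GENCODE vM21 transcripts. Alternatives were other scalings, filters and thresholds, DESeq2 1.42.0, limma-voom (limma 3.58.1), a muscle covariate, a replicate block and each library left out once. Named were all protein and rRNA genes, the 5 tRNA genes with the most counts and the 3 with the smallest p, the called nuclear genes and 5 fixed ones, and noncoding rows over 1% of counts. The genes and lists were chosen with earlier results of these data known. On counts simulated for this comparison over 21760 genes, 15 of 66 genes changed 1.5-fold, 43 of 65 changed 2-fold and 63 of 66 changed 4-fold were called, with 15 false calls among 136. The changed genes were drawn at random from all genes tested, whose median SE in the data was 0.18. The median SE of the tested mitochondrial genes was 0.50, so these rates do not apply to them.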

Additional observations from a re-analysis of the deposited data

Results flagged for a closer look

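A value is listed here where 1 of the 5 libraries of a group stood far from the other 4 for its range (Dixon's test at the 95% level). Of 94 groups examined 5 were so marked, and chance marks about 1 in 20 groups. The rRNA gene share of counts of aged 1 was 8.12%, and its mt-Rnr2 level was 83718 CPM. Young 2 had the highest count of tRNA per 1000 protein gene counts among the young libraries, at 4.36. Young 5 had the lowest shares of protein gene counts from complex III, at 10.8%, and from complex V, at 0.0193%.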

How the results depend on the processing

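The 24 mitochondrial estimates were above 0 under every scaling, DESeq2, limma-voom and the replicate block (21 of 21 tested with the stricter filter), with 2 exceptions among the alternatives: the muscle covariate and leaving out aged 1. Among the genes named by the rule above, those with a log2 fold change under 0 with the muscle covariate had -0.044 for mt-Rnr2, -0.060 for mt-Nd1, -0.20 for mt-Nd2, -0.15 for mt-Tn, -0.088 for mt-Tc, -0.19 for mt-Co1, -0.26 for mt-Co2, -0.52 for mt-Co3, -0.54 for mt-Nd3, -0.40 for mt-Nd4l, -0.16 for mt-Nd4, -0.079 for mt-Tl2, -0.084 for mt-Nd5, -0.091 for mt-Nd6, -0.26 for mt-Cytb, -0.46 for mt-Tp and -0.038 for Tfam. The cause was not tested, and mt-Tw, mt-Th and mt-Ts2, outside that rule, are not listed. Leaving out each library, mt-Co3 ranged between -5.8e-05 and 0.72 and mt-Nd3 between -0.17 and 0.67, both lowest without aged 1. Scaling by total counts moved the median of all genes to -0.16 and gave -0.073 for Lrpprc, -0.017 for Polrmt and -0.11 for Tfam.

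Mitochondrial genes called higher numbered 0, against 1 with DESeq2, 1 at an adjusted p of up to 0.1, and 0 to 1 leaving out each library. Of the nuclear genes of mitochondrial expression, 0 were higher with scaling by total counts and 0 with the muscle covariate, and leaving out each library gave 0 to 1 higher and 0 to 1 lower. Over all genes, 812 were higher and 798 lower. These counts were 285 higher and 916 lower with scaling by total counts, 1545 and 1283 with DESeq2, and 1608 and 1483 at an adjusted p of up to 0.1. Leaving out each library they were 300 to 856 higher and 386 to 830 lower, both lowest without young 2.

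With the replicate number as a block, 0 mitochondrial genes and 1632 genes in all were called, and the median mitochondrial estimate was 0.63. The numbers pair no samples: deviations of same-numbered libraries correlated at -0.15, 0.04, 0.17, 0.16 and -0.08.

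The difference in mitochondrial share, 1.86 percentage points, was 0.114 to 2.56 points leaving out each library. With Gm26917 left out of the total counts it was 2.62 points. Spread between libraries limited the precision for the abundant genes, while mt-Ti, mt-Ty and the untested tRNAs rest on few counts. Age cannot be told apart from the source of the mice.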
